A study of Mus musculus with 4 samples.

Results

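The genes described here encode 44 noncollagenous proteins of the extracellular matrix, the glycoproteins and proteoglycans that surround and anchor cells, in the livers of mice bred to delete the kinase TAK1 (gene Map3k7) in hepatocytes. They were taken by gene symbol, and 40 of the 44 had a probe on the arrays. Fn1, Fbn1, Efemp2 and Lama5 were not analysed here. Each measured gene was read from its brightest probe, out of 16593 genes in all. RNA of whole liver was hybridised to 1 Illumina array per sample. The WT group was 2 samples of genotype TAK1 flox, in which the gene is floxed and no Cre is present, and the TAK1 KO group was 2 samples of genotype Alb-Cre/ TAK1 flox, in which the albumin promoter drives Cre in hepatocytes. All 4 samples were given as untreated C57BL/6 males 4 weeks old, and all carried the floxed gene. Cre and the deletion differ together between the groups and cannot be told apart. Which cells lost the gene was not measured. Whether the samples were separate animals is not in the labels, so p-values measure only the spread between these samples, which may be technical.

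The arrays were closely matched, with median intensities of 81.5 to 81.9 units and 40.6% to 40.9% of probes above 100 units, a level used here as the floor below which a probe is called dim. Of the liver-secreted proteins, Apoa1 (33669.6 to 43996.7 units) and Ttr (29575.7 to 39760.7 units) were bright on every array, while the probe of Alb, the albumin gene, read 190.5 to 214.4 units. The deleted gene, Map3k7, read 155 and 138.4 units on the WT arrays against 125.3 and 117.9 units on the TAK1 KO arrays, short of the threshold (log2 fold change -0.26 ± 0.10 SE, n = 2 per group, adjusted p = 0.116), and the part of the transcript its probe reads is not known here. Xist, an RNA of female cells, read 575 to 853.4 units over the 4 arrays where the label is male. Of the Y-linked genes Eif2s3y and Kdm5d stayed between 53.3 and 69.3 units and Uty read 112.4 to 142.2 units.

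Matrix glycoproteins and proteoglycans are made mostly by stellate cells, portal fibroblasts, endothelial cells and mesothelial cells in the liver, with some coming from hepatocytes. Elastin is laid down on microfibrils, laminins and nidogens build basement membranes, small leucine-rich proteoglycans bind collagen fibrils and growth factors, and latent TGF-beta binding proteins store TGF-beta in the matrix. In scarring liver, stellate cells turn into myofibroblasts and increase the output of many of these proteins.

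RefSeq promoter windows (build GRCm38.p6) were at hand for 28 of the 40 measured genes. They are shown, as the 250 bases before the transcription start, for the 4 genes with the largest rises among those with 1 window (Nid1, Bgn, Thbs2 and Fstl1) and for both genes that fell (Ecm1 and Sdc4). Capitals mark every match, on either strand, to 5 short words: for AP-1 the word TGANTCA, for SMAD proteins the word CAGACA, for TEAD proteins the word GGAATG, for the GC box the word GGGCGG, and for the promoter element named TATA box the word TATAAA. Adjoining or overlapping matches run together.
Nid1, chr13:13437352-13437601, plus strand: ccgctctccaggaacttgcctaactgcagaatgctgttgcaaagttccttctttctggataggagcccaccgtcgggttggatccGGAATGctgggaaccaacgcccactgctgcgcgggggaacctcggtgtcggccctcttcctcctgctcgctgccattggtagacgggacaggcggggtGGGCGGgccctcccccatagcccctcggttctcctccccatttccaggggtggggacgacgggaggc
Bgn, chrX:73483351-73483600, plus strand: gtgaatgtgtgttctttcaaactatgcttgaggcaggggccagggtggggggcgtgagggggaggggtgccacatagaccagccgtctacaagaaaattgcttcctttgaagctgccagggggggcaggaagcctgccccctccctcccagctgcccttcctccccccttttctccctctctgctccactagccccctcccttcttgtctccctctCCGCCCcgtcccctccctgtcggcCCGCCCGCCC
Thbs2, chr17:14694263-14694512, minus strand: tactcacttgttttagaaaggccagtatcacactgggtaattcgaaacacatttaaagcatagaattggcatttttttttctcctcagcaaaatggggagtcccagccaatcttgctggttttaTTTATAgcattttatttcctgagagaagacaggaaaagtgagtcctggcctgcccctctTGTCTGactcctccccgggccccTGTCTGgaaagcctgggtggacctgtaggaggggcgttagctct
Fstl1, chr16:37776805-37777054, plus strand: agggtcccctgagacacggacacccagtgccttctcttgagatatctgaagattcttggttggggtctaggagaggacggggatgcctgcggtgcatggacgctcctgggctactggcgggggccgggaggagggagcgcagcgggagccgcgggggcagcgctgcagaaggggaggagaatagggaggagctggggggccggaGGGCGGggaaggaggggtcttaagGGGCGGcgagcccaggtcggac
Ecm1, chr3:95739570-95739819, minus strand: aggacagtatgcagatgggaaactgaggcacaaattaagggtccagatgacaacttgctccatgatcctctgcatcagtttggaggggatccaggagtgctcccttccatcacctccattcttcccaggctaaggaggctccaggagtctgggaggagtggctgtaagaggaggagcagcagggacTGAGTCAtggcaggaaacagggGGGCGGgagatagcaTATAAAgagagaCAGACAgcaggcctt
Sdc4, chr2:164443189-164443438, minus strand: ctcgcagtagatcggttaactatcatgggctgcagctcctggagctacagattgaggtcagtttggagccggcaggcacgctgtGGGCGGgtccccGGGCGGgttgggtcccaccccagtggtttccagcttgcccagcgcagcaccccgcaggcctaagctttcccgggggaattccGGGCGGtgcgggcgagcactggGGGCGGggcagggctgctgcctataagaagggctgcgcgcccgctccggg

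No word was in all 6 windows. Of the genes that rose, Nid1 has 1 TEAD word 165 bases before the start and 1 GC box, Bgn 3 GC boxes within 34 bases of the start, Thbs2 2 SMAD words and a TATA word 126 bases before the start, and Fstl1 2 GC boxes. Ecm1 has an AP-1 word 64 bases and a TATA word 27 bases before the start, besides 1 SMAD word and 1 GC box, and Sdc4 has 4 GC boxes. Over all 14 windows of the 11 risen genes that had one, the SMAD word was in 7, those of Emilin1, Fbln1, Mfap2, Sparc, Thbs2 and Tnc, against 17.1% of all 32851 windows. The GC box was in 8 of the 14 (32.7% of all windows), the TATA word in 3 (12.4%), the TEAD word in 2 (12.6%) and the AP-1 word in 0 (6.75%). Over the 36 windows of all measured genes that had one, risen or not, the SMAD word was in 11 and the GC box in 20. The TATA word was in 7 of the 36, the TEAD word in 3 and the AP-1 word in 2. A match is a run of letters only and shows nothing about binding.

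In TAK1 KO liver more matrix genes rose than fell. Of the 40 measured genes 18 rose, 2 fell and 20 did not pass (limma, Benjamini-Hochberg adjusted p below 0.05), whereas over all 16593 genes 10.5% rose and 7.71% fell. The median log2 fold change of the 40 genes was 0.29, against -0.0036 over all genes. With an array left out it ran from 0.28 (without TAK1 KO replicate 1) to 0.47 (without TAK1 KO replicate 2). It was 0.21 with no background correction and 0.40 with an offset of 16. The largest rises were in Mgp (5.07-fold), Lum (4.68-fold) and Nid1 (3.62-fold), and the genes that fell were Ecm1 and Sdc4. Dim probes were fewer among these genes than on the array as a whole, with 11 of 40 below 100 units on all 4 arrays against 8327 of 16593. Among the 22 of them above 100 units on both WT arrays, a filter that does not use the TAK1 KO arrays, 13 rose and 2 fell, where 18.2% and 17.2% of the 7170 such genes did. Leaving out WT replicate 1 or 2 left 1 gene fallen instead of 2. Wherever an array is left out, its group is a single array that is assumed to vary like the pair of the other group. Both TAK1 KO arrays read above both WT arrays in 26 of the 40 genes, compared with 27.4% of all genes. In bulk tissue, more cells of a type and more RNA per cell cannot be told apart.

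**Figure D1:**
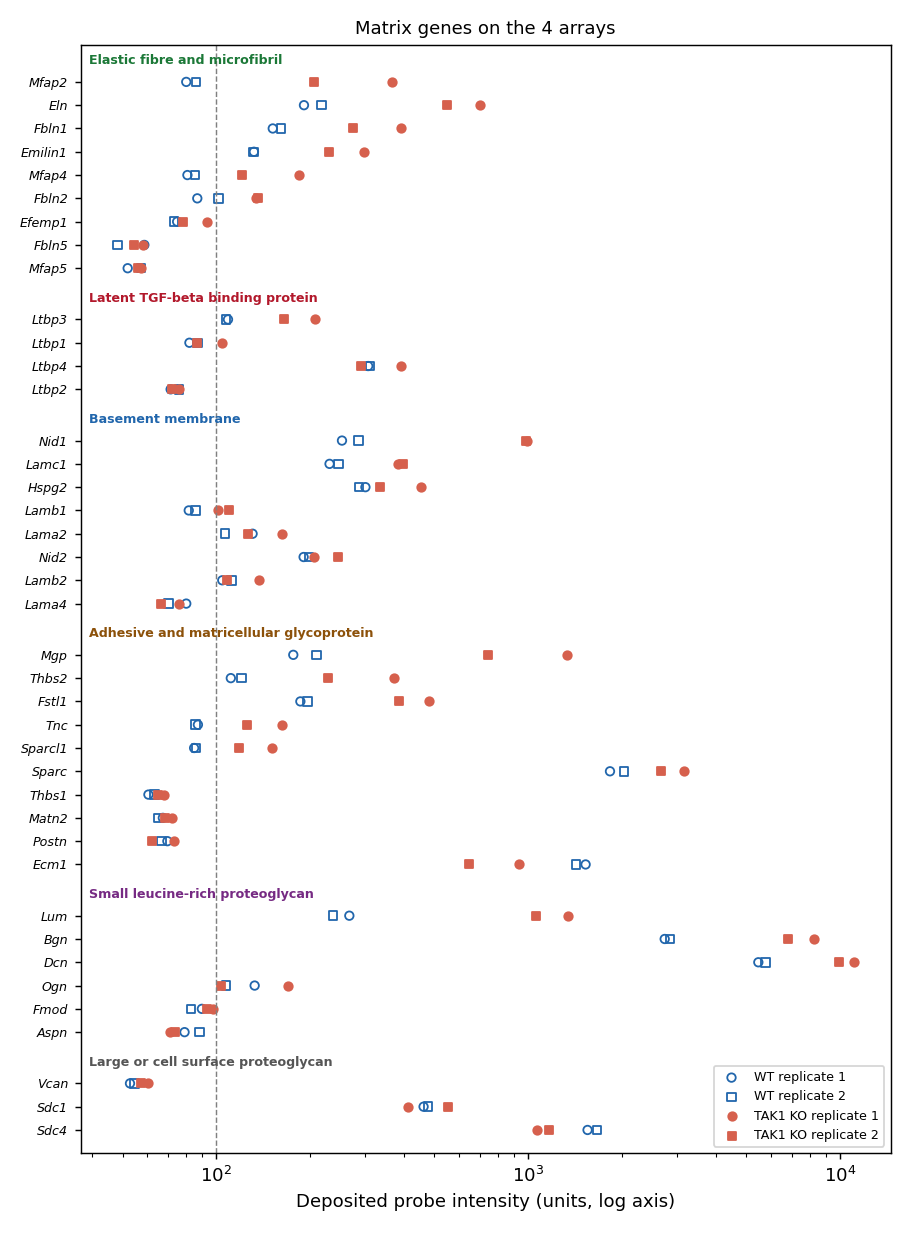
Deposited probe intensity (units, log axis) of the 40 measured matrix genes on each of the 4 arrays, grouped by role, with open blue symbols for WT, filled red symbols for TAK1 KO, and a dashed line at 100 units. In Nid1, Lum, Bgn, Dcn and Eln the red symbols lie clear of the blue ones, and in Ecm1 and Sdc4 they lie to the left.

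Elastic fibre and microfibril genes mostly went up in TAK1 KO liver: 6 of 9 measured rose, 0 fell, and the median log2 fold change was 0.81. Eln, the elastin gene, read 190.9 and 217.5 units on the WT arrays against 699.2 and 550.6 units on the TAK1 KO arrays. Both TAK1 KO arrays lay well above WT, a rise of log2 1.58 ± 0.13 (SE, n = 2 per group, adjusted p = 6.68e-05), or 2.45-fold to 3.67-fold by its 95% interval. Mfap2, a microfibril protein that binds fibrillin, was dim in WT at 80 and 85.9 units and read 366.5 and 205.8 units in TAK1 KO. It was thus at least 2.67-fold higher (adjusted p = 0.000737), the bound being the TAK1 KO mean against WT values raised to the lowest reading above 100 units on each array. Of the other 2 probes of Mfap2, both dim in WT, 1 passed (log2 0.56, limma adjusted p = 0.00456 over all named probes) and 1 did not (0.134). Fbln1, a fibulin that associates with elastic fibres and basement membranes, rose 2.07-fold from 151.6 and 161.3 units to 391.2 and 274.6 units (adjusted p = 0.00134), while its other 2 probes were dim on every array and did not pass.

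Emilin1, a glycoprotein at the junction of elastin and microfibrils, was nearly equal on the WT arrays at 131.9 and 131.7 units. It read 297.5 and 229.6 units in TAK1 KO, a 1.95-fold rise (adjusted p = 0.000766). Mfap4, an elastic fibre protein that binds integrins, went from 80.7 and 85.3 units to 183.9 and 121.1 units, at least 1.47-fold higher (adjusted p = 0.00816). Its call was lost without WT replicate 1 (adjusted p = 0.0928) and without WT replicate 2 (0.0714). Fbln2, another fibulin, read 86.8 and 101.5 units in WT against 133.9 and 135.7 units, a 1.41-fold rise (adjusted p = 0.00825) that was lost without WT replicate 1 (adjusted p = 0.0842) and when its 3 probes were averaged (0.106). Efemp1, Fbln5 and Mfap5, of the same assembly, were below 100 units on every array, at 48.1 to 93.4 units, and did not pass.

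Latent TGF-beta binding proteins hold inactive TGF-beta in the matrix, and 1 of the 4 rose, beside 10.5% of all genes. Only 2 of the 4 were above 100 units on at least 2 arrays, so the count is too small to read as a share. Ltbp3 read 108.9 and 107.3 units on the WT arrays against 207.3 and 164.4 units on the TAK1 KO arrays, so that the groups were well apart (1.68-fold, log2 0.75 ± 0.12 SE, adjusted p = 0.00224). Its second probe was dim on every array and did not pass. Ltbp4 overlapped between the groups, at 306.8 and 311.4 units on the WT arrays against 390.1 and 289.9 units on the TAK1 KO arrays (log2 0.12, 95% interval -0.18 to 0.42, adjusted p = 0.676). Ltbp1 on its brightest probe was above 100 units on 1 array only (log2 0.16, adjusted p = 0.423). Of its 5 other probes, 1 was higher in TAK1 KO, at 108.1 and 102.7 units against 66.2 and 80.7 units (log2 0.50 ± 0.11 SE, limma adjusted p = 0.0128 over all named probes), so the probes of Ltbp1 disagreed. Ltbp2 was dim throughout (71.3 to 75.8 units).

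In the basement membrane, the sheet under epithelia and around vessels, 2 of 8 measured genes rose and 0 fell. Over all 16593 genes 10.5% rose, and 20.8% of the 7791 above 100 units on at least 2 arrays, as 7 of these 8 were. With so few genes the count is not read as different from that share. Nid1, the nidogen that links laminin to the collagen IV network, read 252.8 and 285.8 units in WT. In TAK1 KO it read 988.5 and 981.1 units, nearly the same on both arrays and far above WT (3.62-fold, log2 1.86 ± 0.10 SE, adjusted p = 7.93e-06). Lamc1, the gamma chain shared by most laminins, rose 1.62-fold from 230.6 and 246.1 units to 381.7 and 395.9 units (adjusted p = 0.0009).

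The other 6 basement membrane genes did not pass. Nid2, the other nidogen, read 190.4 and 198.5 units on the WT arrays against 206.1 and 245.2 units on the TAK1 KO arrays, with no overlap but a log2 difference of 0.20 (95% interval -0.04 to 0.45, adjusted p = 0.271). Lamb1, a laminin beta chain, just missed the threshold (81.5 and 85.8 against 100.9 and 109.6 units, adjusted p = 0.0502). It passed when only genes above 100 units on at least 2 arrays were tested (0.0492). Lamb1 entered that filter only through the TAK1 KO arrays, where it was higher, so that pass adds no support. Hspg2, which encodes the heparan sulfate proteoglycan perlecan, was at 300.6 and 287.1 units on the WT arrays against 453.6 and 334.9 units on the TAK1 KO arrays. It did not pass with all arrays (adjusted p = 0.0803) and passed without TAK1 KO replicate 2 (0.000308), when 1 TAK1 KO array remains and the spread comes from the WT pair alone. With the replicate number as a block its adjusted p was 0.0446. Lama2 (log2 0.27, adjusted p = 0.270) and Lamb2 (0.16, 0.462), chains of other laminins, overlapped between the groups, and Lama4 was dim (66.4 to 80 units). Lama2 passed without TAK1 KO replicate 2, again with 1 TAK1 KO array set against the WT pair. Whether the change of Nid1 differs from that of Nid2 was not tested.

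**Figure D2:**
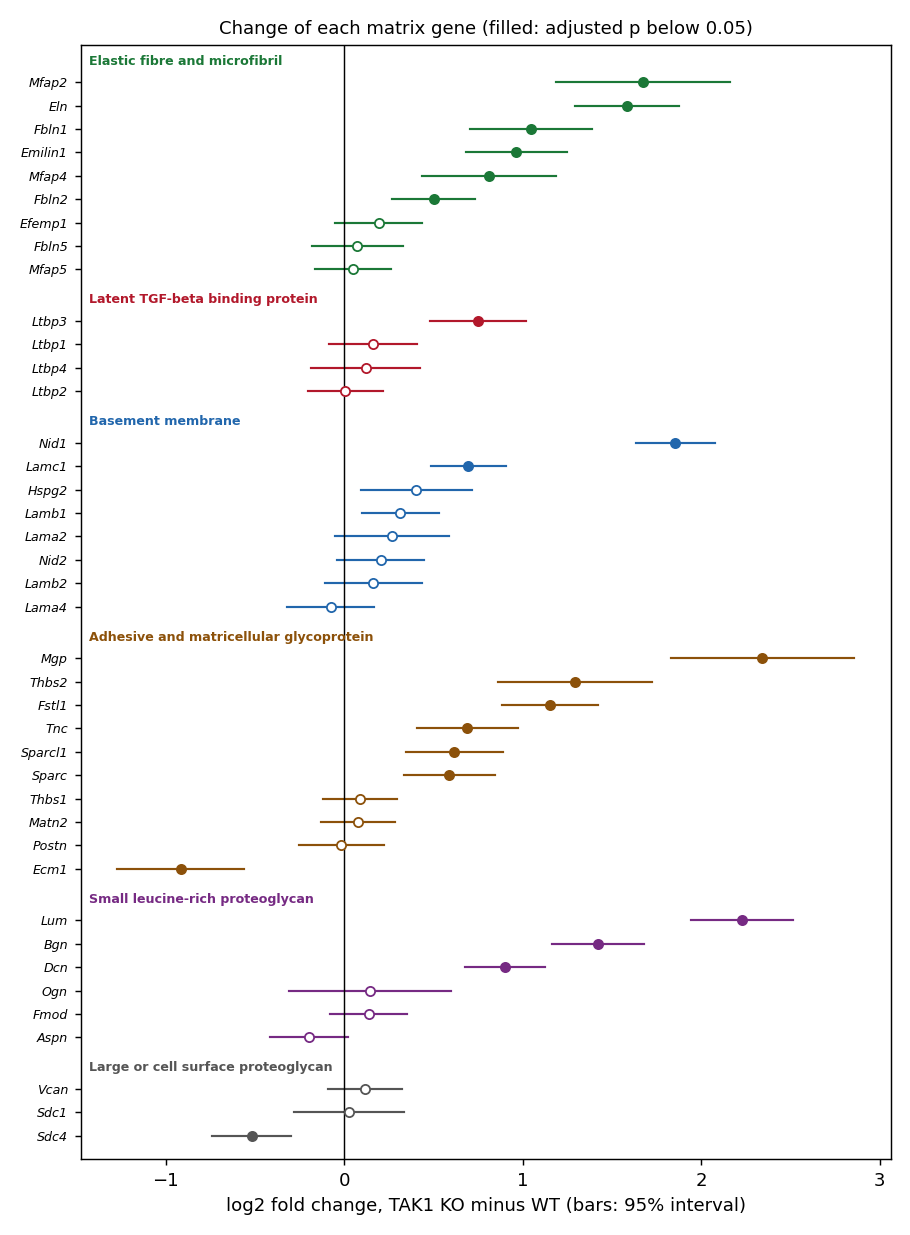
Log2 fold change, TAK1 KO minus WT, of the 40 measured matrix genes, with bars for the 95% interval of the limma fit and filled points for an adjusted p below 0.05. Filled points on the right run from Fbln2 at 0.50 to Mgp at 2.34, and Ecm1 at -0.92 and Sdc4 at -0.52 are the 2 on the left.

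Adhesive and matricellular glycoproteins, which modulate how cells bind matrix, split in direction: 6 of 10 rose and Ecm1 fell. Mgp encodes matrix Gla protein, an inhibitor of calcification and of BMP signals. It read 176.4 and 209.3 units on the WT arrays against 1330.5 and 740.8 units on the TAK1 KO arrays, a 5.07-fold rise (log2 2.34 ± 0.23 SE, 95% interval 1.83 to 2.85, adjusted p = 0.00016). The TAK1 KO arrays differed widely from each other, yet the lower of them was well above both WT arrays. Over the whole array Mgp had the rank 33 among rises, Lum 40 and Nid1 58.

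Thbs2, a thrombospondin of fibroblasts that restrains vessel growth, read 111.2 and 120.5 units on the WT arrays against 370.6 and 227.2 units on the TAK1 KO arrays, a 2.45-fold rise (adjusted p = 0.00148). Its relative Thbs1, which can activate latent TGF-beta, was dim at 60.5 to 67.7 units. Fstl1, a secreted follistatin-like protein, rose 2.22-fold, from 185.9 and 195.9 units to 480.2 and 384.4 units (adjusted p = 0.000221). Sparc, a collagen-binding matricellular protein, read 1830.8 and 2027.3 units on the WT arrays against 3161.1 and 2663.7 units on the TAK1 KO arrays. Its rise of log2 0.59 ± 0.11 SE (adjusted p = 0.00581) was lost without WT replicate 1 (0.073), and its second probe gave log2 0.34 (limma adjusted p = 0.0642 over all named probes).

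Tnc encodes tenascin C, a matrix protein of healing tissue, and Sparcl1 a relative of Sparc. Both were dim in WT (85.8 to 87.2 and 84.8 to 86 units) and above the floor in TAK1 KO, Tnc at 162.1 and 125.1 units and Sparcl1 at 150.4 and 118.3 units. Tnc was at least 1.40-fold higher (adjusted p = 0.00426) and Sparcl1 at least 1.32-fold (adjusted p = 0.00633). Tnc no longer passed once WT replicate 2 was dropped (adjusted p = 0.0544) or its 6 probes were averaged (0.224): 1 other probe of Tnc rose (log2 0.71 ± 0.16 SE, limma adjusted p = 0.0156 over all named probes) and the other 4 did not pass. For Sparcl1 the adjusted p was 0.065 with WT replicate 1 dropped and 0.0617 with replicate 2 dropped. Postn, the periostin gene of activated fibroblasts, and the matrilin Matn2 were below 100 units on every array (62.1 to 73.1 units) and did not pass.

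Ecm1, a secreted glycoprotein that mouse hepatocytes make and that restrains the activation of latent TGF-beta, went the other way. It read 1529 and 1424.2 units on the WT arrays against 937.9 and 648.1 units on the TAK1 KO arrays, with no overlap, a 1.89-fold fall (log2 -0.92 ± 0.16 SE, adjusted p = 0.00327). Its second probe also fell, from 152.6 and 152.4 units to 113.9 and 91.6 units (limma adjusted p = 0.00883 over all named probes). Without WT replicate 1 the adjusted p of the brighter probe was 0.0533.

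The small leucine-rich proteoglycans, which bind collagen fibrils, divided into 3 that rose and 3 that did not pass. Lum, lumican, read 266.9 and 236.1 units on the WT arrays against 1338.3 and 1062.9 units on the TAK1 KO arrays, a 4.68-fold rise with groups far apart (log2 2.23 ± 0.13 SE, adjusted p = 1.03e-05). Bgn, biglycan, rose 2.68-fold from 2742.6 and 2849.9 units to 8282.7 and 6797.7 units (adjusted p = 6.02e-05). Dcn, decorin, which binds TGF-beta as well as collagen, read 5477.6 and 5781.4 units on the WT arrays against 11079.3 and 9953.1 units on the TAK1 KO arrays.

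The rise of Dcn was 1.87-fold (log2 0.90 ± 0.10 SE, adjusted p = 0.00031), and its second probe gave log2 0.87 ± 0.11 SE. Ogn, osteoglycin, read 132.6 and 107.5 units on the WT arrays against 169.9 and 103.1 units on the TAK1 KO arrays, so the groups overlapped (adjusted p = 0.75). Replicate 2 of TAK1 KO lay below both WT arrays. Without it Ogn passed (log2 0.49, adjusted p = 0.00646), with 1 TAK1 KO array set against the spread of the WT pair. Fmod, fibromodulin, and Aspn, asporin, stayed below 100 units on all arrays, at 82.8 to 97.3 and 70.8 to 88.2 units, with log2 differences of 0.14 (adjusted p = 0.433) and -0.20 (0.23), neither of which passed.

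Of the large and cell surface proteoglycans, which carry chondroitin or heparan sulfate chains, 1 of 3 fell, beside 7.71% of all genes, and 3 genes are too few to read as a share. Sdc4, syndecan 4, a co-receptor for fibronectin at focal adhesions, read 1551.2 and 1662.5 units on the WT arrays against 1070.9 and 1170.8 units on the TAK1 KO arrays. The groups did not overlap (1.43-fold lower, log2 -0.52 ± 0.10 SE, adjusted p = 0.00536), although the call was lost without WT replicate 2 (0.0618). Sdc1, syndecan 1, which clears lipoprotein remnants at the hepatocyte surface, overlapped between the groups on its brightest probe (461.9 and 476.9 against 411.4 and 555.1 units; log2 0.03, 95% interval -0.28 to 0.33, adjusted p = 0.945). A second probe of Sdc1 rose from 298 and 245 units to 363.5 and 399.6 units (log2 0.49 ± 0.12 SE, limma adjusted p = 0.0186 over all named probes), so the probes of Sdc1 disagreed. Vcan, versican, was dim at 52.8 to 60.1 units.

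The TAK1 KO arrays were not equal in their matrix genes, and whether they stand for separate animals is not known. Replicate 1 read higher than replicate 2 in 33 of the 40 genes and in 16 of the 18 that rose, while over all 16593 genes it did so in 8267, and among the 1743 genes that rose in 684. In lists described below, it was also the higher in 28 of 42 other matrix glycoproteins, 12 of 19 matrix assembly and cross-linking enzymes and 11 of 14 hepatocyte markers. It was the higher in 9 of 21 matrix receptors and 6 of 12 macrophage markers. The median change from the WT mean of the 18 risen genes was log2 1.22 in replicate 1 and 0.81 in replicate 2. Fbln2 and Lamc1 were the 2 risen genes that were higher in replicate 2. Summed over 15 markers of stellate cells and myofibroblasts the level was 13788.8 units in replicate 1 and 10992.8 in replicate 2, a gap that lay mostly in the bright Col3a1 (4295.2 and 2729.1 units) and Reln (4537.3 and 3665.5 units), named after their values were seen. The median log2 change of these 15 markers from the WT mean was 0.57 on both arrays. Of the 15, 12 read higher in replicate 1 and 3 in replicate 2, with a median log2 difference of -0.0455 (replicate 2 minus replicate 1). The sum over 12 macrophage markers was 14253.8 and 14338.1 units. The part of these markers in the difference between the arrays was not tested.

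**Figure D3:**
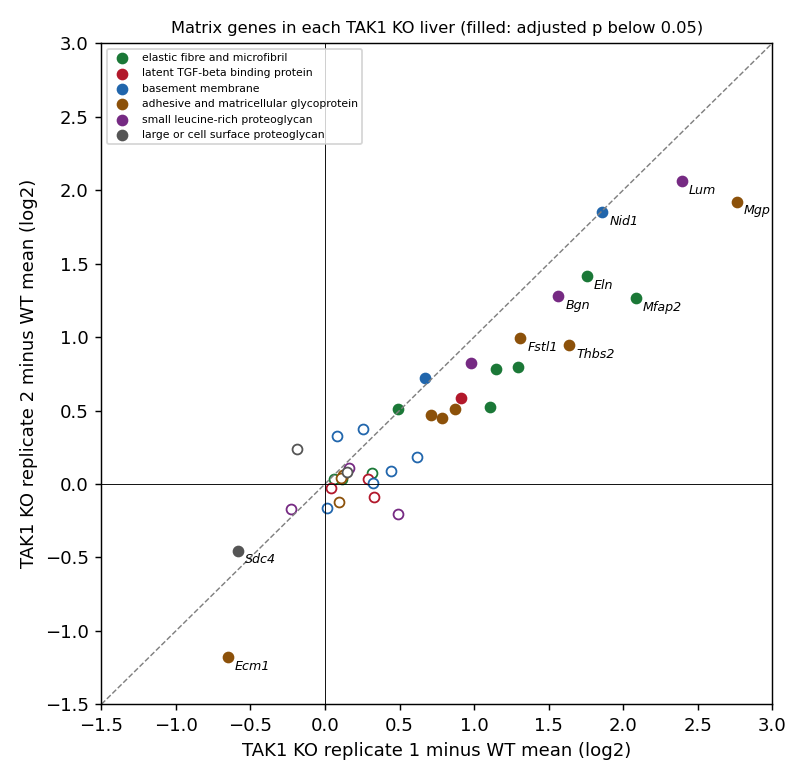
Log2 change from the WT mean of each matrix gene in TAK1 KO replicate 1 (horizontal) and replicate 2 (vertical), coloured by role, with filled points for an adjusted p below 0.05 and a dashed line of equal change. Most risen genes lie below the line, with Mgp and Mfap2 well below it and Nid1 on it.

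Other genes of the matrix, from lists that hold none of the 44, were read from the same fit. Among other matrix glycoproteins 12 of 42 measured rose and 0 fell, with a median log2 fold change of 0.08, and 18 of the 42 were dim on every array. The 3 largest rises were in Spon2, an adhesion protein that binds microbial surfaces (6.66-fold, adjusted p = 3.95e-05), Mfge8, which bridges dying cells to phagocytes (4.89-fold, 1.9e-06), and Ccn2, the connective tissue growth factor (3.78-fold, 5.44e-06). Spon2 read 677.2 and 638 units on the WT arrays against 5704.8 and 3395.7 units on the TAK1 KO arrays, again higher in replicate 1. Of the other proteoglycans 5 of 23 rose and 1 fell (median -0.0087), and 3 rose without WT replicate 1 or 2. Gpc1, a glypican, rose 3.05-fold, Prelp, a relative of lumican, 1.76-fold and Srgn, the proteoglycan of secretory granules, 1.67-fold, and Sdc2, a syndecan of the same family as Sdc4, fell 1.84-fold (log2 -0.88 ± 0.10 SE, adjusted p = 0.000382).

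Enzymes and chaperones that assemble and cross-link matrix rose in 7 of 19 cases, with 0 falls and a median of 0.14. Loxl1, a lysyl oxidase that cross-links elastin, read 153.3 and 173.6 units on the WT arrays against 881.6 and 620.6 units on the TAK1 KO arrays (4.44-fold, adjusted p = 3.55e-05). Tgm2, a transglutaminase that joins matrix proteins, rose 3.32-fold (9.02e-05), and Lox was at least 1.86-fold higher (0.000156). Matrix receptors rose in 7 of 21 cases and fell in 0 (median 0.24). The collagen receptor Ddr1 was at least 2.14-fold higher, the integrin chain Itga9, dim in WT, rose (adjusted p = 0.000772), and the chain Itga3 rose 1.56-fold. The count for receptors was 4 without WT replicate 1. Enzymes that build glycosaminoglycan chains rose in 3 of 25 cases and fell in 0 (median -0.03). Those 3 were Chsy1 (1.49-fold), Extl3 (1.44-fold) and Hs3st1, which was above 100 units on 1 array only. That share is near the one of all genes, and without WT replicate 1 it was 1 up and 1 down, and without TAK1 KO replicate 1 2 up and 2 down.

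**Figure D4:**
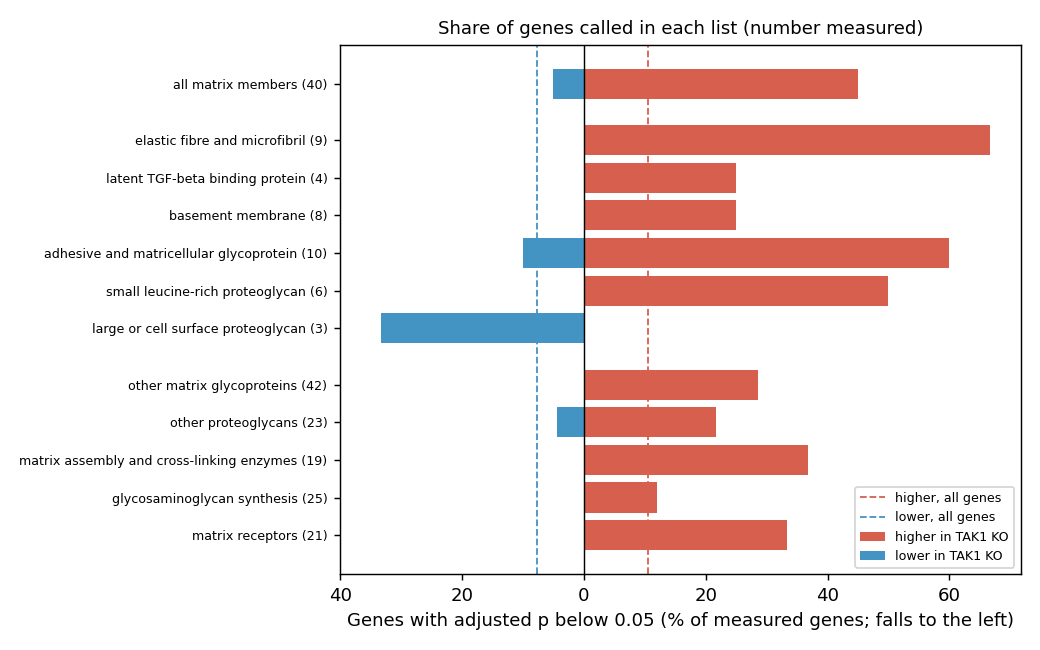
Share of measured genes with an adjusted p below 0.05 (percent, rises to the right and falls to the left) among all 40 matrix genes, in each role and in 5 lists of other matrix genes, with the number measured in brackets and dashed lines for all 16593 genes. Elastic fibre genes rose in 6 of 9 cases and glycosaminoglycan enzymes in 3 of 25, beside a background of 10.5%.

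Markers of the cells that could supply these transcripts moved in the same samples. The counts of marker lists here and below stand beside the shares of all 16593 genes, 10.5% risen and 7.71% fallen. Among the 7170 genes above 100 units on both WT arrays these shares were 18.2% and 17.2%. Of 15 measured markers of stellate cells and myofibroblasts 8 rose and 0 fell (median log2 0.57), and their summed level was 4824.9 and 5418 units in WT against 13788.8 and 10992.8 units in TAK1 KO. Cygb, a globin of stellate cells, rose 4.55-fold, Acta2, smooth muscle actin, 4.15-fold and Col1a1 at least 3.06-fold. The quiescent stellate marker Lrat (54.3 to 73.5 units), Gfap (60.1 to 64.4), Hand2 (76.8 to 89.3) and Lhx2 (51.8 to 65.2) were dim on every array and did not pass. Ngfr was above 100 units on every array (113.9 to 132.7 units) and did not pass either (log2 0.08, limma adjusted p = 0.70). Tagln read 82 and 81.3 units on the WT arrays against 90.2 and 110.2 units on the TAK1 KO arrays. It did not pass (log2 0.27, limma adjusted p = 0.143), and neither did Rgs5, dim on every array (72.6 to 85.6 units). Portal fibroblast and mesothelial markers rose in 4 of 12 cases (Pi16, dim on every array, Cd34 at least 1.18-fold, Thy1 at least 1.35-fold and the mesothelial gene Wt1 at least 1.06-fold), with sums of 1060.8 and 1000.2 units in WT and 1349.4 and 1220.2 in TAK1 KO, and Msln, also mesothelial, was dim at 66.1 to 78.2 units. Smooth muscle markers rose in 3 of 7 cases (Smtn 1.85-fold, Des 1.49-fold and Actg2 1.37-fold), with sums of 648.2 and 694.4 against 883.1 and 964.5 units. Myh11 (67.1 to 73.1 units) and Cnn1 (68.4 to 71.5 units) were dim and did not pass. Reln, Dpt and Spp1 stood in a marker list and also among the other matrix glycoproteins, Pxdn among the latter and the assembly enzymes, and Des, Tagln, Krt19 and Spp1 in more than 1 marker list.

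Of 12 macrophage markers 7 rose and 0 fell (Gpnmb at least 21.9-fold, Trem2 at least 2.34-fold and Lyz2 3.10-fold), with sums of 6488.4 and 5890.9 units on the WT arrays against 14253.8 and 14338.1 units on the TAK1 KO arrays. The others that rose were Marco (2.61-fold), Adgre1 (1.92-fold), Vsig4 (1.67-fold) and Cx3cr1 (at least 1.19-fold). Clec4f (log2 0.31, limma adjusted p = 0.094) and Timd4 (-0.20, 0.75) were above 100 units on every array and did not pass. Cd5l, Ccr2 and Itgam were dim on every array and did not pass either. Of 12 sinusoidal endothelial markers 3 fell and 0 rose (Lyve1 1.60-fold, Oit3 1.27-fold and Mrc1 1.25-fold lower), with sums of 9113.9 and 9054.9 against 9130.2 and 9280.9 units. These sums lay mostly in the bright Clec4g (4884 and 4973.9 units on the WT arrays against 5631.2 and 5775.4 units on the TAK1 KO arrays), which did not pass. Both TAK1 KO arrays read below both WT arrays in 5 of the 12 and above them in 1 (4366 and 4550 of all 16593 genes). Hepatocyte markers fell in 5 of 14 cases, led by Hal (2.79-fold), Tdo2 (2.79-fold) and Cyp2e1 (2.42-fold), with sums of 177862.5 and 182085.7 units on the WT arrays against 168236.8 and 154680.7 units on the TAK1 KO arrays. The bright Cyp2e1 weighed heavily in these sums (33028.5 and 33407.4 units in WT against 16538.2 and 11432.5 units in TAK1 KO). Both TAK1 KO arrays read below both WT arrays in 7 of the 14 and above them in 2, Ttr and Apoa1, which did not pass. Hnf4a, Cps1, Alb and Serpina1a were among those that overlapped between the groups. Of 6 biliary markers Sox9 rose, from 67.3 and 74.2 units to 104.4 and 95 units (adjusted p = 0.00978), with sums of 464.5 and 468.3 against 564.6 and 523.3 units, and Krt19 was dim (50.8 to 74.1 units). Of 10 lymphocyte markers 0 passed, 7 were dim on every array, and their sums were 740.9 and 740.3 against 731.5 and 737.9 units. Of 3 erythroid markers Alas2 fell 2.29-fold, with sums of 20495 and 15516.2 against 15699.8 and 16102.7 units. The part of any of these cell types in the change of the matrix genes was not tested.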

How the data were processed

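Whole-liver RNA of 2 WT and 2 TAK1 KO samples was hybridised to Illumina bead arrays as biotinylated cRNA, per the labels' protocols. The deposited values were linear intensity per probe, 1 column per sample. The authors' values had nearly equal medians over the arrays and were taken as normalized between arrays by a method not given in the sources used here. Of 25697 probes, 23978 had 1 gene symbol in the platform annotation, 0 had several and 1719 had none. The 4 value columns of the table before normalization match no sample label and were not used.

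The deposited intensities were background-corrected (normexp, offset 50) and taken to log2. The brightest probe stood for each of 16593 genes. The test was limma 3.58.1 (R 4.3.3), a two-sided moderated fit by lmFit with eBayes; p-values were adjusted over every gene (Benjamini-Hochberg) and called below 0.05, and p-values of other probes were adjusted over all named probes. Errors are the SE or 95% interval of that fit. With 2 arrays per group (2 residual degrees of freedom, 6.85 added by the variance prior) the number of arrays limits the precision. The smallest p of an exact permutation test of 2 against 2 is 0.333, and no such test was run. Tested on simulated data with 200 changed of 16593 genes, the fit found 39.6% of changes of log2 0.5, 98.5% of log2 1 and 100% of log2 2, and 5.05% of calls were false. Far more genes were called in the data themselves (1743 risen and 1279 fallen). The share found depends on how many genes change, so these figures hold for the simulated setting only.

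Every measured gene is accounted for. In other lists the up to 3 genes with the largest changes past the threshold are named, with up to 2 that went the other way. Further stellate, smooth muscle, macrophage and hepatocyte markers were named after their values were seen. Map3k7, liver-secreted and sex-linked genes and defining markers are named as checks. The genes and lists were chosen with earlier results of these data known, as was the floor of 100 units. Alternatives changed the background step, offset, scaling, filter, probe choice, variance prior, array weights, replicate block and arrays used. Same-numbered samples did not deviate together (r = 0.0453 over genes, 2 pairs), so the numbers were not taken as pairs.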

Additional observations from a re-analysis of the deposited data

How the results depend on the processing

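The count of matrix genes that rose, 18, ranged from 14 to 21 when each array was left out, and was 17 to 19 under 75th percentile scaling, quantile normalization, no background correction, an offset of 16, a floor on at least 2 arrays, averaged probes, a trended robust prior, array weights and the replicate block. Of the 18 genes, 13 passed under every alternative that tested them, and no matrix gene changed direction with a call. With the replicate block, 19 matrix genes rose and 2 fell, Hspg2 passing as well (adjusted p = 0.0446). Asking for a change of at least 1.5-fold, a filter added after seeing the data, left 17 rises. The filter for genes above the floor on both WT arrays, also added then, left 22 matrix genes to test. Of these 13 rose, and all 22 kept the outcome they had in the main fit.

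The count of matrix genes that fell, 2, was 1 to 2 with an array left out and 1 with at least 1.5-fold. Over all genes, 1035 to 1875 rose and 759 to 1429 fell with an array left out, and 897 and 613 did so with at least 1.5-fold. With an array left out, other proteoglycans rose in 3 to 6 cases, matrix receptors in 4 to 9 and glycosaminoglycan enzymes in 1 to 3, with 0 to 2 of the last falling. At least 1.5-fold left 4 assembly enzymes and 0 glycosaminoglycan enzymes risen. Genes above the floor on both WT arrays held 4 risen assembly enzymes and 3 risen receptors. With an array left out, its group is a single array and the spread comes from the pair of the other group, so calls gained in this way rest on that pair alone. The cause was not tested, beyond the smaller number of arrays or genes in these settings. The alternative of starting from the table before normalization was not run, since its columns match no sample label. Low signal limits the 11 matrix genes that stayed below 100 units on every array, of which 0 passed.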
